A study of Homo sapiens with 6 samples.

Results

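The genes described here are the 10 members of the VEGF system named *CCBE1*, *ADAMTS3*, *VEGFA*, *VEGFB*, *VEGFC*, *VEGFD*, *PGF*, *FLT1*, *KDR* and *FLT4*. They were taken by symbol from the 60663 genes of the deposited count table, and each symbol matched 1 row. The samples were CCD18Co cells, an established line of normal human colon fibroblasts grown in medium with serum. They were transfected with siRNA for 6 h and collected 48 h after it. In siLTBP2 the pooled siRNAs targeted *LTBP2*, and in siNT they were a non-targeting pool. Each group had 3 libraries, which carry the numbers 1 to 3 and were made from ribosome-depleted total RNA. Both groups received siRNA and transfection reagent, no untreated cells were analysed, and *LTBP2* was silenced with 1 pool only.

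Vascular endothelial growth factors are secreted dimers that bind tyrosine kinase receptors on endothelial cells. VEGFA acts mainly through KDR (VEGFR2) and drives the growth of blood vessels. VEGFB and PGF bind FLT1 (VEGFR1), which also binds VEGFA tightly and exists in a soluble decoy form. VEGFC and VEGFD act through FLT4 (VEGFR3) on lymphatic endothelium. VEGFC is secreted as a precursor, and the matrix protein CCBE1 brings it together with the protease ADAMTS3, which cuts it into its active form. Fibroblasts are a known source of the ligands and usually make little of the receptors. LTBP2, the silenced gene product, is a protein of elastic microfibrils related to the latent TGF-beta binding proteins.

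The deposited counts summed to between 44663424 and 53576899 per library. *LTBP2* was at 25.0, 23.1 and 21.2 CPM (counts scaled to library size by TMM) in siNT and at 6.49, 8.61 and 6.00 CPM in siLTBP2, so that 30.4% of its level remained. The log2 fold change of *LTBP2* was -1.72 (standard error 0.15, edgeR adjusted p = 6.6e-05). All 10 fibroblast markers, such as *COL1A1* and *THY1*, were expressed, with summed levels between 9960 and 13200 CPM in siNT and between 10100 and 14400 CPM in siLTBP2. Of 11 markers of blood endothelium, 5 stayed under 10 counts in every library and *CDH5* was at 0 in all siNT libraries. The sum of the 11 lay between 76.4 and 94.1 CPM in siNT and between 74.3 and 90.7 CPM in siLTBP2, and most of it came from *TEK*. Of 4 lymphatic endothelial markers, *FLT4* and *CCL21* had no count in any library. *PROX1* had 8 to 14 counts and *LYVE1* 2 to 8 counts per library. The cells thus carried the markers of their label. In bulk RNA, fewer cells of a type and less RNA per cell cannot be told apart.

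Of the 10 members, 7 had enough counts to be tested and 3 did not (*ADAMTS3*, *KDR* and *FLT4*). The quasi-likelihood test in edgeR was used throughout, and an adjusted p below 0.05 was taken as a difference. By this call, *CCBE1* rose and *FLT1* fell in siLTBP2, while the 5 ligand genes did not pass. Among all 16920 genes tested, 9.76% were higher and 9.51% lower by that call, 19.3% in all, so that 2 of 7 is no result about the members as a group. *CCBE1* also passed the stricter thresholds used in the study, an adjusted p below 0.01 with a more than 2-fold change, which 1.29% of the genes tested passed upward. The median log2 fold change was -0.18 over the 7 members and -0.0056 over all genes tested. In 3 of the 7 members (*CCBE1*, *FLT1* and *PGF*) the libraries of the groups did not overlap, as in 37% of the genes tested. For any single gene, an exact permutation test of 3 libraries against 3 cannot give a two-sided p below 0.10.

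**Figure D1:**
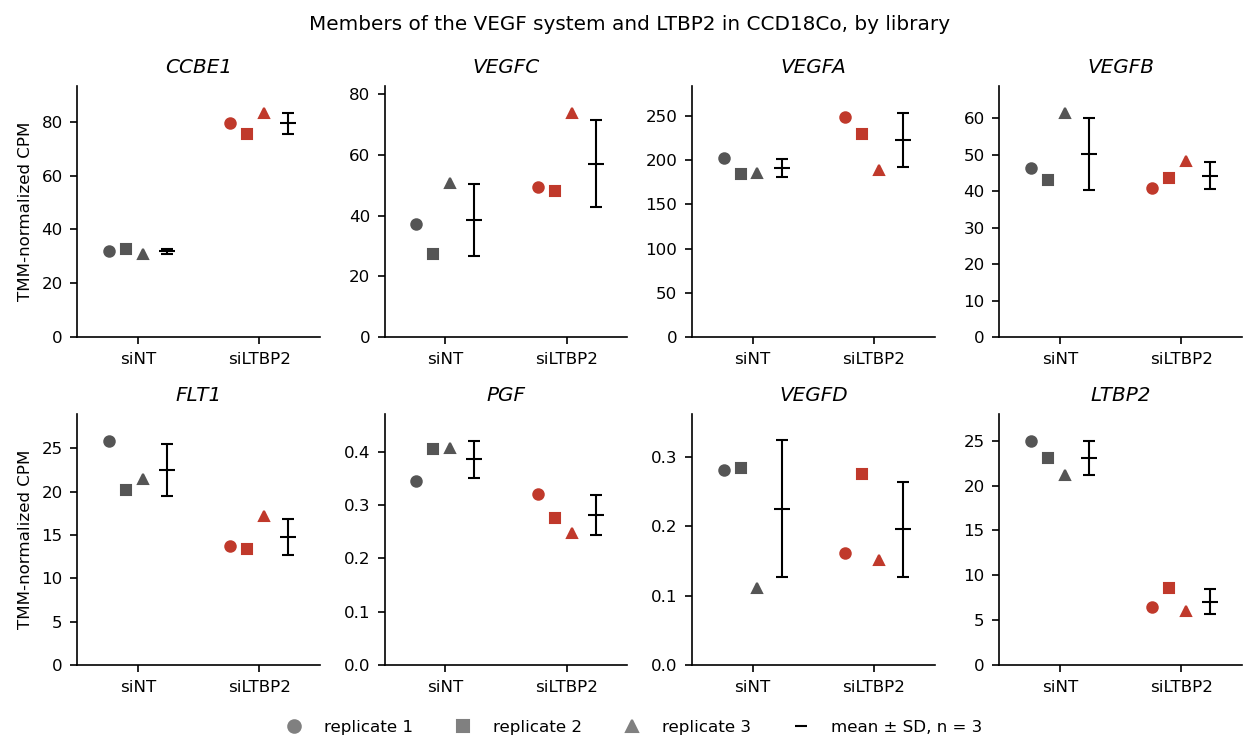
TMM-normalized CPM (vertical axes, linear, from 0) of the 7 tested members and of *LTBP2* in each of the 3 siNT and 3 siLTBP2 libraries, with the mean and SD beside the points. *CCBE1* lies between 30.8 and 32.8 CPM in siNT and between 75.5 and 83.3 CPM in siLTBP2, whereas the points of *VEGFC*, *VEGFA* and *VEGFB* overlap between the groups.

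*CCBE1* (ENSG00000183287), which encodes the collagen- and calcium-binding partner of ADAMTS3, showed the largest difference of the members. The gene spans 59430939 to 59697662 on chromosome 18 (GRCh38, minus strand), with 11 exons in the canonical transcript. The counts were 1474, 1621 and 1661 in siNT and 3461, 3569 and 4389 in siLTBP2. This corresponded to 31.9, 32.8 and 30.8 CPM in siNT and to 79.4, 75.5 and 83.3 CPM in siLTBP2. Every siLTBP2 library was far above every siNT library, and the spread within each group was small. The mean went from 31.8 ± 1.02 to 79.4 ± 3.91 CPM (SD, n = 3), a 2.49-fold rise. The log2 fold change of *CCBE1* was 1.32 (standard error 0.08, 95% interval 1.13 to 1.5, edgeR adjusted p = 1.4e-05). By p-value *CCBE1* ranked 11 among all genes tested, ahead of *LTBP2* itself at 52. Of 4 long noncoding RNA genes annotated on the opposite strand within *CCBE1*, 3 had no count and 1 had 13 counts over all libraries, against at least 1474 counts of *CCBE1* in each.

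The promoter of *CCBE1* is shown because this is the member with the clearest rise. The window comes from RefSeq (GRCh38.p14, chr18:59697374-59697673, minus strand, 300 bases around the start annotated there). The gene as placed above starts at 59697662, near the first base of the window. Both motifs marked below therefore lie inside the gene as placed above. Capitals mark ACGTG, the core of hypoxia response elements, and CAGAC, the core of SMAD binding elements, searched on both strands, so that the latter reads GTCTG when it lies on the other strand.
*CCBE1*: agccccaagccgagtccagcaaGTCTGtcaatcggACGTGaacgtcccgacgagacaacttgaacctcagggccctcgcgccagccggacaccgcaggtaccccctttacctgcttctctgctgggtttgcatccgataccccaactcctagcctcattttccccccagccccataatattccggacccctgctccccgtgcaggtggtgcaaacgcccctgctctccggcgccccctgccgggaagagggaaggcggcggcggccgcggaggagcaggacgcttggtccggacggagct

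The window of *CCBE1* held 1 match to each of these motifs, which do not overlap, and 65.3% of its bases were G or C. Such short motifs are common. ACGTG was found in 21.4% and CAGAC in 45.3% of the 35116 promoter windows of the same table. A TATA box (TATAAA) and a GC box (GGGCGG) were not found in this window.

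*ADAMTS3* (ENSG00000156140, chromosome 4), the protease that works with CCBE1, was barely detected. It had 2, 1 and 11 counts in siNT and 3, 8 and 5 counts in siLTBP2, and was left out of the test by the low-count filter. The libraries overlapped and no direction could be read at this depth. With no filter on low counts its log2 fold change was 0.25 (edgeR adjusted p = 0.88).

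*ADAMTS2* and *ADAMTS14* encode procollagen proteases closely related to ADAMTS3. *ADAMTS2* had means of 4.02 ± 0.782 and 3.52 ± 0.0928 CPM in siNT and siLTBP2 (SD, n = 3, edgeR adjusted p = 0.50). *ADAMTS14* fell, from 5.10, 4.17 and 2.21 CPM in siNT to 2.18, 1.5 and 1.1 CPM in siLTBP2. The highest siLTBP2 library was only just below the lowest siNT library. The log2 fold change of *ADAMTS14* was -1.27 (standard error 0.32, adjusted p = 0.020), and it lost the call without siNT replicate 1 (adjusted p = 0.073), siNT replicate 2 (0.078) or siLTBP2 replicate 2 (0.068), in a range of 8.8e-08 to 0.078 over all alternatives.

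*FURIN*, a proprotein convertase that cuts the VEGFC precursor inside the cell before CCBE1 and ADAMTS3 act, also fell. It was at 141, 103 and 135 CPM in siNT and at 69.9, 72.1 and 69.3 CPM in siLTBP2. The siLTBP2 libraries were nearly equal and all were below the siNT libraries, a 1.79-fold lower level (log2 fold change -0.84, standard error 0.12, edgeR adjusted p = 7.3e-04). The other convertases *PCSK5* and *PCSK7* and the lysosomal protease *CTSD* had log2 fold changes of 0.08, -0.05 and -0.08 and did not pass. *KLK3* had no count and *PLG* was not tested. In all, 0 of the 6 tested genes of this protease list were higher and 2 were lower, *ADAMTS14* with the limits given above, where 9.76% and 9.51% of all genes tested were.

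*VEGFC* (ENSG00000150630, chromosome 4, 176683538 to 176792922, minus strand), the lymphatic growth factor on which CCBE1 acts, was variable between libraries. It was at 37.3, 27.3 and 50.8 CPM in siNT and at 49.5, 48.1 and 73.8 CPM in siLTBP2. The replicate 3 library was the highest of each group, and siNT replicate 3 lay above 2 of the siLTBP2 libraries. The means were 38.5 ± 11.8 CPM and 57.1 ± 14.5 CPM (SD, n = 3). The log2 fold change of *VEGFC* was 0.57 (standard error 0.22, 95% interval 0.09 to 1.05, edgeR adjusted p = 0.091), which is short of the threshold. The interval lies wholly above 0 but, unlike the adjusted p, makes no allowance for the number of genes tested. The likelihood ratio test, which the study used, gave an adjusted p of 0.048, and without siNT replicate 3 the log2 fold change was 0.83 (adjusted p = 0.018). It was 0.35 without siLTBP2 replicate 3 (adjusted p = 0.24) and 0.38 without siNT replicate 2 (adjusted p = 0.27). Over all alternatives the adjusted p of *VEGFC* ran from 6.6e-07, with the replicate number fitted as a block, to 0.27. Between libraries of the same number, the siLTBP2 library was always the higher one.

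*CCBE1* and *VEGFC* did not keep a fixed ratio. Per kilobase of exon, the level of *CCBE1* divided by that of *VEGFC* was 0.317, 0.445 and 0.225 in siNT and 0.594, 0.581 and 0.418 in siLTBP2. The ratio was higher in 2 of the siLTBP2 libraries than in any siNT library, but siLTBP2 replicate 3 was below siNT replicate 2. Between libraries of the same number, it was always higher in siLTBP2.

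*VEGFA* (ENSG00000112715, chromosome 6, 43770184 to 43786487, plus strand), the main growth factor of blood vessels, had the most counts of all members, between 9157 and 10858 per library. It was at 203, 185 and 186 CPM in siNT and at 249, 230 and 189 CPM in siLTBP2. Replicates 1 and 2 of siLTBP2 were above all siNT libraries, while replicate 3 was among them. The log2 fold change of *VEGFA* was 0.22 (standard error 0.11, 95% interval -0.02 to 0.46, edgeR adjusted p = 0.19). Without siLTBP2 replicate 3 it was 0.33 with an adjusted p of 0.040, in a range of 0.027 to 0.51 over all alternatives. A noncoding gene that overlaps *VEGFA* on the other strand had 40 counts in all.

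*VEGFB* (ENSG00000173511, chromosome 11), a ligand of FLT1, was at 46.3, 43.0 and 61.5 CPM in siNT and at 41.0, 43.7 and 48.3 CPM in siLTBP2. Apart from siNT replicate 3, all libraries lay close together. Its log2 fold change was -0.18 (standard error 0.13, 95% interval -0.47 to 0.11, edgeR adjusted p = 0.39). Without siNT replicate 3 the log2 fold change was -0.01 (edgeR adjusted p = 0.98, in a range of 0.10 to 0.98 over all alternatives).

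*PGF* and *VEGFD* were at the edge of detection. *PGF* (ENSG00000119630), another FLT1 ligand, had 16, 20 and 22 counts in siNT and 14, 13 and 13 in siLTBP2. All siLTBP2 libraries were below all siNT libraries, but the log2 fold change of -0.47 had a standard error of 0.31 and a 95% interval from -1.14 to 0.21 (edgeR adjusted p = 0.33). *VEGFD* (ENSG00000165197), the second ligand of FLT4, had 13, 14 and 6 counts in siNT and 7, 13 and 8 in siLTBP2. Its groups overlapped, and the 95% interval of its log2 fold change, from -1.21 to 0.84, includes changes in either direction (edgeR adjusted p = 0.83).

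*FLT1* (ENSG00000102755, chromosome 13, 28300346 to 28495145, minus strand), the receptor of VEGFA, VEGFB and PGF, was the only receptor gene of the 3 with more than 1 count in a library. It had 1200, 995 and 1158 counts in siNT and 595, 632 and 908 counts in siLTBP2. As CPM it was at 25.9, 20.2 and 21.5 in siNT and at 13.7, 13.4 and 17.2 in siLTBP2. All siLTBP2 libraries were below all siNT libraries, with siLTBP2 replicate 3 the nearest to them. The means were 22.5 ± 3.04 and 14.7 ± 2.15 CPM (SD, n = 3), a 1.53-fold lower level. The log2 fold change of *FLT1* was -0.61 (standard error 0.14, 95% interval -0.91 to -0.31, edgeR adjusted p = 0.011). Without siLTBP2 replicate 2 it was -0.55 and the adjusted p was 0.052, the only one of 14 alternatives in which the call was lost, in a range of 1e-05 to 0.052. Counts per gene do not separate the membrane receptor from the soluble form.

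The promoter of *FLT1* is shown as that of the member that fell (RefSeq, GRCh38.p14, chr13:28495079-28495378, minus strand, 300 bases around the annotated start). Capitals mark the palindromic cAMP response element TGACGTCA and the TATA box TATAAA.
*FLT1*: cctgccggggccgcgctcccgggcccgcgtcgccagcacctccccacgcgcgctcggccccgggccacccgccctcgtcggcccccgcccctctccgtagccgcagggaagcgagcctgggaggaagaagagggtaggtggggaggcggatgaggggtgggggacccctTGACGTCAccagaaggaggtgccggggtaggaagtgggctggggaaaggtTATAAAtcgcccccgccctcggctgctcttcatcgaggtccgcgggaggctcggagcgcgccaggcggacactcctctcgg

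TGACGTCA was present in 1.8% and TATAAA in 11.5% of the 35116 windows, and *FLT1* was the only member with either among the 8 members that have a window. The window of *FLT1* also held 3 GC boxes (GGGCGG) and no ACGTG or CAGAC. *VEGFC* had 2 GC boxes and none of the other motifs, while *VEGFB* had 9 GC boxes in a window of 84.7% G or C. GGGCGG was present in 45% of all windows. The motifs were chosen after the fold changes were known, and no occupancy of any site was measured here.

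*KDR* (ENSG00000128052), which encodes the main signalling receptor of VEGFA, had 1 count in siNT replicate 1, 1 count in siLTBP2 replicate 2 and 0 in the other libraries. *FLT4* (ENSG00000037280), the receptor of VEGFC and VEGFD, had 0 counts in all 6 libraries. A count of 0 allows up to 3 counts, that is up to 0.0688 CPM in the smallest library (counting error only). Neither gene allowed a comparison between the groups.

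**Figure D2:**
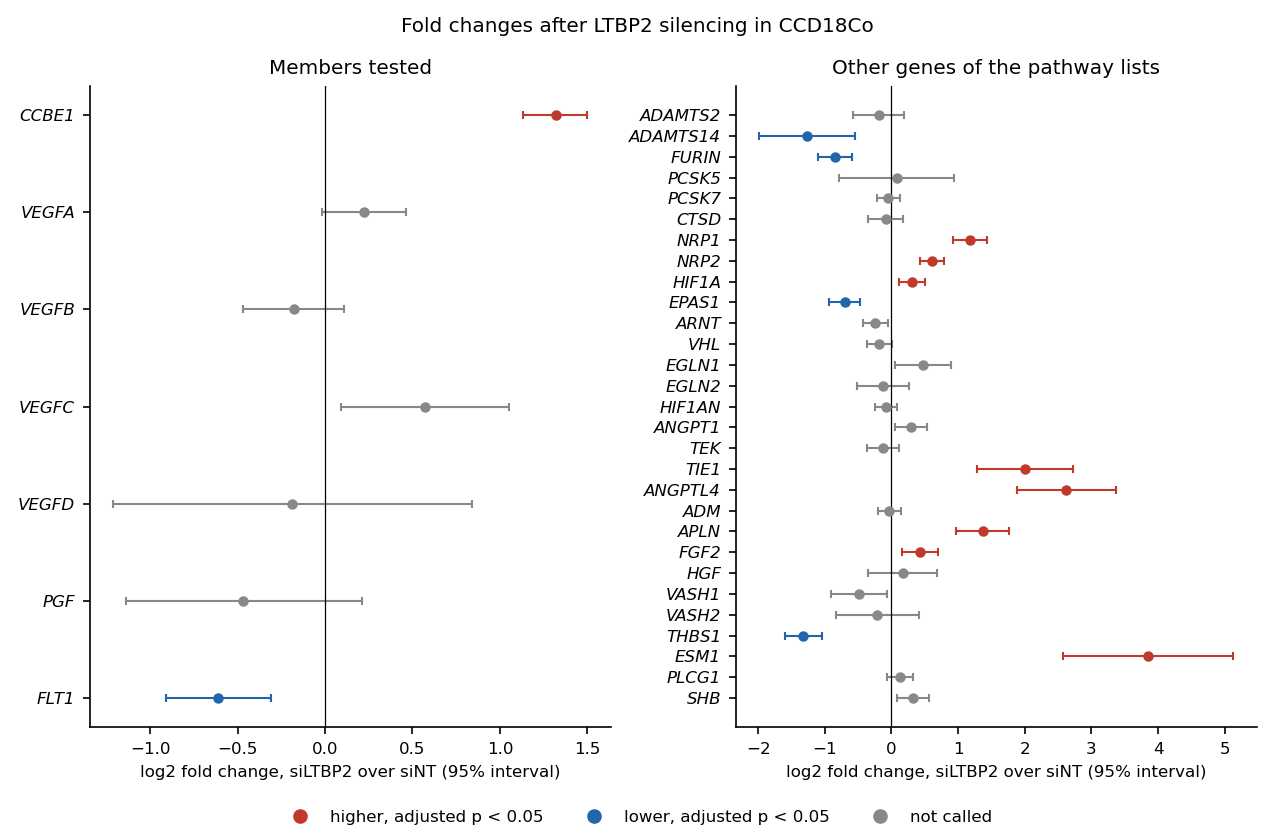
Log2 fold changes (horizontal axes, siLTBP2 over siNT) with 95% intervals from edgeR for the 7 tested members (left) and the 29 tested genes of the pathway lists (right). *CCBE1* (1.32) and *FLT1* (-0.61) are the called members, and *NRP1* (1.18) and *NRP2* (0.61) are both to the right of 0. The scales of the panels differ.

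The co-receptors of the family were well expressed and both rose. *NRP1* encodes neuropilin-1, which binds VEGFA together with KDR, and measured 286, 223 and 280 CPM in siNT, against 634, 591 and 558 CPM in siLTBP2. The groups were well apart, with a 2.26-fold rise (log2 fold change 1.18, standard error 0.11, edgeR adjusted p = 1.1e-04). *NRP2* encodes neuropilin-2, the co-receptor of VEGFC with FLT4, and was at 53.9, 56.1 and 58.1 CPM in siNT and 83.7, 83.0 and 89.7 CPM in siLTBP2. This was a 1.53-fold rise with little spread in either group (log2 fold change 0.61, standard error 0.08, adjusted p = 6.2e-04). Both neuropilins kept the call in all 14 alternatives. They also bind class 3 semaphorins.

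Other genes of the pathway were taken from 6 lists of 39 genes in all (the co-receptors and proteases above, oxygen sensing, the angiopoietin axis, other secreted regulators and the receptor signal relay). Of these, 29 were tested, 8 were higher and 4 lower in siLTBP2, against backgrounds of 9.76% and 9.51%. Their median log2 fold change was -0.03. The lists were written with results of these libraries known (*ANGPTL4*, *THBS1* and *ESM1* among them), so their counts are not independent evidence.

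Among 7 tested genes of oxygen sensing, which controls *VEGFA* transcription, the 2 hypoxia-inducible alpha subunits moved in opposite directions. *EPAS1* (HIF-2 alpha) was at 976, 853 and 935 CPM in siNT and 538, 624 and 538 CPM in siLTBP2, a 1.63-fold lower level (log2 fold change -0.70, standard error 0.10, edgeR adjusted p = 0.0011). *HIF1A* was at 298, 284 and 314 CPM in siNT and 359, 358 and 395 CPM in siLTBP2, a 1.24-fold higher level (log2 fold change 0.31, adjusted p = 0.032). The groups did not overlap for either gene, but the call of *HIF1A* was lost whichever library was left out (adjusted p between 0.055 and 0.093). *ARNT*, *VHL*, *EGLN1*, *EGLN2* and *HIF1AN* did not pass.

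In the angiopoietin axis, *TIE1* was higher, at 0.497, 1.26 and 1.48 CPM in siNT and 3.58, 5.54 and 4.06 CPM in siLTBP2 (log2 fold change 2.01, standard error 0.33, edgeR adjusted p = 0.0020). *TIE1* encodes an orphan receptor usually found on endothelium. The receptor gene *TEK* was at 74.2 ± 7.85 and 68.0 ± 7.79 CPM and its ligand *ANGPT1* at 37.1 ± 4.73 and 45.6 ± 3.78 CPM in siNT and siLTBP2 (SD, n = 3), and neither passed. *ROBO4*, another gene of the endothelial marker list, also rose, from 1.64 ± 0.292 to 5.41 ± 0.244 CPM (SD, n = 3, adjusted p = 1.5e-04). The remaining tested genes of that list had lower means in siLTBP2 and did not pass, with log2 fold changes of -0.71 for *VWF* (edgeR adjusted p = 0.065, all siLTBP2 libraries below the siNT libraries) and -0.22 for *EGFL7*. The median over its 5 tested genes was -0.12. Of the same list *PECAM1*, *CDH5*, *CLDN5*, *ERG*, *EMCN* and *PLVAP* each had a mean of at most 0.119 CPM in either group.

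**Figure D3:**
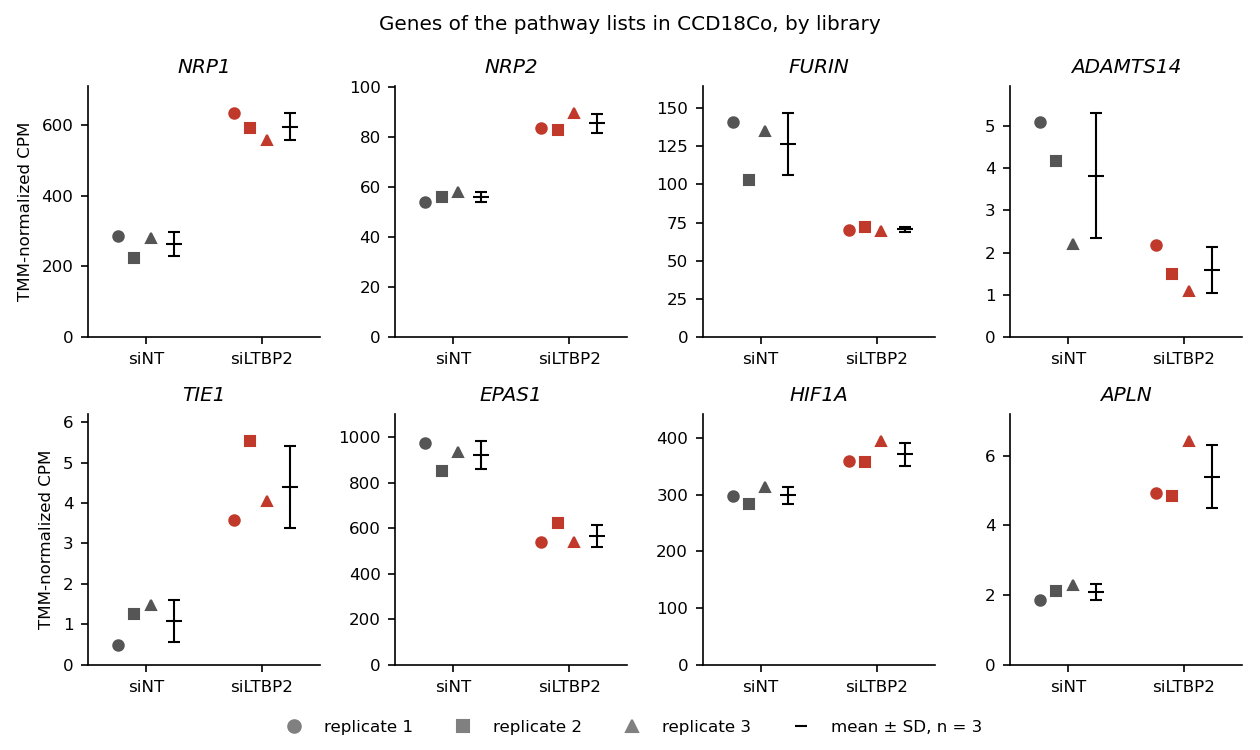
TMM-normalized CPM (vertical axes, linear, from 0) of 8 called genes of the pathway lists in each library, with the mean and SD. *NRP1*, *NRP2*, *TIE1*, *HIF1A* and *APLN* are higher and *FURIN*, *ADAMTS14* and *EPAS1* lower in all 3 siLTBP2 libraries. *ADAMTS14* has the narrowest gap, between 2.21 and 2.18 CPM.

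Of 9 tested secreted regulators of vessel growth, 4 were higher and 1 lower, against 9.76% and 9.51% of all genes tested, in a list that includes the 3 genes known from earlier results. *APLN*, which encodes the peptide apelin, rose from 2.1 ± 0.222 to 5.40 ± 0.893 CPM, and *FGF2*, a growth factor of fibroblasts and endothelium, from 163 ± 14.9 to 219 ± 36.6 CPM (SD, n = 3). *FGF2* passed (edgeR adjusted p = 0.032) and lost the call without 1 of 4 libraries (siNT replicate 1 or 2, siLTBP2 replicate 2 or 3), with adjusted p values between 0.051 and 0.11. The other higher genes were *ANGPTL4*, with a log2 fold change of 2.62, and *ESM1*, which had only 3, 2 and 3 counts in siNT and 25, 21 and 72 in siLTBP2. *THBS1*, an inhibitor of angiogenesis that binds VEGFA, was 2.49-fold lower. *ADM*, *HGF*, *VASH1* and *VASH2* did not pass. Of the receptor signal relay, *PLCG1* and *SHB* were tested and did not pass (adjusted p = 0.34 and 0.055).

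Levels of different genes can be compared only per length, and here the order of the ligands depended on the length used. With the union of all annotated exons, the level in siNT per kilobase was 25.5 ± 5.01 for *VEGFB*, 14.7 ± 4.51 for *VEGFC* and 13.3 ± 0.678 CPM for *VEGFA* (SD, n = 3), so that *VEGFC* and *VEGFA* did not differ beyond their spread. With the length of the canonical transcript it was 53.0 ± 2.71 for *VEGFA*, 27.8 ± 5.46 for *VEGFB* and 17.0 ± 5.22 CPM for *VEGFC*. The union of exons of *VEGFA* is 14431 bases against 3609 for its canonical transcript, compared with 1970 and 1805 for *VEGFB* and 2615 and 2259 for *VEGFC*. On the union scale *CCBE1* was at 4.51 ± 0.144 and *FLT1* at 1.79 ± 0.241 CPM per kilobase. *VEGFD* and *PGF* were at 0.103 and 0.0666 CPM per kilobase (percentiles 5.32 and 2.82 of the genes tested). The order of *VEGFD* and *PGF* was also reversed with canonical lengths (0.109 and 0.222).

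The share of each ligand in the summed ligand level was described without a test. On the union scale *VEGFC* made up 27.4%, 23.0% and 30.5% in siNT and 33.1%, 32.4% and 42.8% in siLTBP2. *VEGFB* made up 45.2%, 48.1% and 49.0% in siNT and 36.5%, 39.2% and 37.2% in siLTBP2. The groups did not overlap for these 2 shares, *VEGFC* being higher and *VEGFB* lower in siLTBP2. The shares of a library have a fixed sum, so a higher share of any ligand lowers the rest. The CPM of *VEGFC* and *VEGFB* themselves overlapped between the groups, and neither gene passed (edgeR adjusted p = 0.091 and 0.39). *VEGFA* made up 25.2 ± 4.36% in siNT and 26.1 ± 5.45% in siLTBP2 (SD, n = 3). With canonical lengths the share of *VEGFC* was 16.7%, 13.8% and 20.8% in siNT and 19.2%, 19.5% and 29.1% in siLTBP2, which overlap, so the separation of *VEGFC* depended on the length. That of *VEGFB* was 26.0%, 27.2% and 31.4% in siNT and 20%, 22.1% and 23.9% in siLTBP2 and did not overlap.

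**Figure D4:**
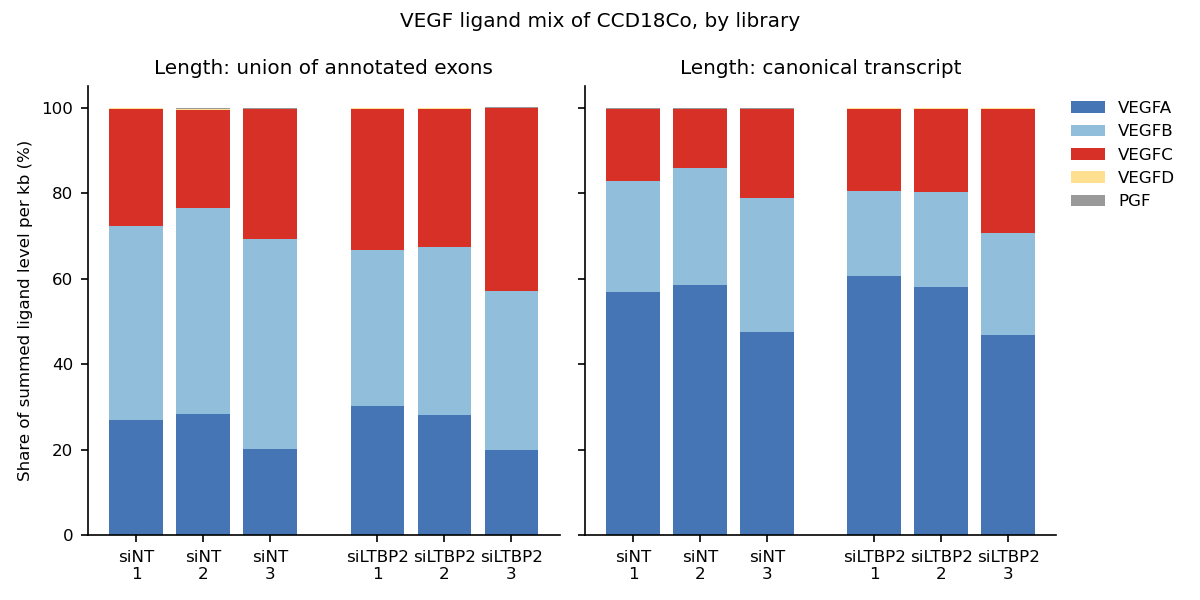
Share (%) of each ligand gene in the summed level of the 5 ligand genes per kilobase, as stacked bars for each library, with the union of exons (left) or the canonical transcript (right) as the length. *VEGFC* takes between 23.0% and 30.5% in siNT and between 32.4% and 42.8% in siLTBP2 on the left, and *VEGFD* and *PGF* are too small to see.

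Among 11407 other protein-coding genes with a mean of at least 1 CPM, *VANGL1*, *SLC39A10*, *SLC44A1* and *CEP97* were among those whose log2 CPM followed *CCBE1* most closely over the 6 libraries, with Pearson's r from 0.997 to 0.999. For *VEGFC* the closest were *LONP1*, *IRS2*, *BRPF1*, *NOG* and *KLHDC8B*, with r from 0.994 to 0.999. These 4 genes near *CCBE1* all passed the test as higher in siLTBP2, and the 5 nearest to *VEGFC*, like *VEGFC*, did not pass. The genes were picked over the same libraries that gave the calls, so calls like those of *CCBE1* and *VEGFC* were largely built in. With 6 points that share a group difference and so many candidates, such values of r only describe these libraries.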

How the data were processed

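The deposited table held whole-number counts per gene for 6 libraries, which the authors obtained from stranded, ribosome-depleted RNA with STAR 2.7.1a on GRCh38 and HTSeq 0.11.2 (versions per the submitters' processing notes). For the Ensembl release and the strand setting of the counting, the sources used here give nothing. Of the 60663 gene identifiers, 60462 were in GENCODE 44 and 95.7% of those had the same start, as did all 10 members, so its coordinates and lengths were used.

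Counts were filtered with filterByExpr, scaled by TMM and tested with the quasi-likelihood test of edgeR 4.0.16 (limma 3.58.1, R 4.3.3), two-sided, with Benjamini-Hochberg adjustment over all 16920 genes tested. The standard error is the log2 fold change over the root of the test statistic. The study used the likelihood ratio test of edgeR. Other alternatives were DESeq2 1.42.0, other scalings and filters, the replicate number as a block and leaving out each library. The canonical transcript length was an alternative chosen after seeing the data. Within each group the libraries differed by more than sampling noise (chi-square from 28.01 to 55.05 per degree of freedom). The labels do not say whether they came from separate cultures, so p-values measure the spread between these libraries, which may be technical. In 8 simulations of the comparison of siLTBP2 with siNT, on 16629 to 16678 genes, 42.8% of genes changed 1.5-fold and 75.1% of those changed 2-fold were called. Of the calls, 8.3% were false, above the threshold of 0.05. Over all simulations 390 tested genes were changed 1.5-fold and 393 were changed 2-fold. This is a far smaller share than the 19.3% of genes called in the data, so these rates may not hold for the data.

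The members and gene lists were chosen with earlier results of these data known. Named genes were all members, *LTBP2*, list genes with an adjusted p below 0.05 or whose role needed a value, the 5 genes closest to *CCBE1* and to *VEGFC*, and genes overlapping or near a member. One gene that the rule names is not reported here. Promoter windows (RefSeq, GRCh38.p14) were matched by symbol for 8 of the 10 members, all but *VEGFA* and *FLT4*, and searched for 6 motifs on both strands (TGANTCA, an AP-1 site, beside those in the text).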

Additional observations from a re-analysis of the deposited data

How the results depend on the processing

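*CCBE1* and *LTBP2* kept their direction and call in all 14 alternatives, with log2 fold changes of 1.28 to 1.35 and of -1.89 to -1.61. *FLT1* stayed between -0.73 and -0.50 and lost its call only without siLTBP2 replicate 2. *VEGFC* passed 0.05 under the likelihood ratio test (0.57), with no low-count filter (0.56, adjusted p = 1.5e-05) and without siNT replicate 3, and lay between 0.35 and 0.83 with 1 library left out. *VEGFA* lay between 0.13 and 0.33, and *VEGFD* between -0.52 and 0.03, changing sign without siNT replicate 2. What caused these changes was not tested. *PGF* and *VEGFD* did not pass a filter of 1 CPM in 3 libraries.

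Same-numbered libraries correlated at 0.30, 0.08 and 0.43 in their deviations, and differently numbered ones between -0.39 and 0.10. The labels give a number but do not state a pairing, so the main fit left the number out. Whether the libraries are paired by number was not settled, and calls that differ with the replicate block depend on it. siNT replicate 2 correlated best with siLTBP2 replicate 1 (0.10), and siNT replicates 1 and 3 with their own number. With the replicate block, 4 members passed, *VEGFC* (0.59, adjusted p = 6.6e-07) and *VEGFA* (0.21, adjusted p = 0.027) in addition, and 3109 genes were higher and 3022 lower, against 1652 and 1609. Without 1 library, 1042 to 1449 genes were higher and 1078 to 1332 lower, the fewest higher ones without siLTBP2 replicate 2, and 1 to 3 members passed.

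With canonical lengths the mean ligand share moved to 54.4% in siNT and 55.2% in siLTBP2 for *VEGFA*, 28.2% and 22.0% for *VEGFB*, and 17.1% and 22.6% for *VEGFC*. Low counts limited *PGF* and *VEGFD* (6 to 22 per library), *ADAMTS3* (1 to 11), *KDR* (0 or 1) and *FLT4* (0).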

Other observations

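*PGF* and *LTBP2* lie on chromosome 14, with 329455 bases and 6 protein-coding genes between them. Of these 6 genes, *AREL1*, *FCF1*, *YLPM1* and *DLST* were tested and had log2 fold changes of 0.01, 0.23, 0.20 and -0.02, and none passed (edgeR adjusted p between 0.13 and 0.97). *PROX2* and *RPS6KL1* had too few counts. The level of *PGF* was close to the limit of detection in both groups.

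The word GCACCCA, taken from earlier results of these data, was absent from the canonical 3′ UTRs of all 10 members. Other transcript forms were not searched. *LTBP2* carried 1 copy in its canonical 3′ UTR and 3 in its coding sequence. Of 12311 tested coding genes whose 3′ UTR had 50 bases or more, 1455 (11.8%) carried it, among them 405 of the 1420 that were lower in siLTBP2. Because the word was taken from these data, this count is not independent evidence. It occurs once in the coding sequence of each of *FLT1*, *KDR*, *VEGFA* and *VEGFB*. Of these genes, *FLT1* was lower, *VEGFA* and *VEGFB* did not pass and *KDR* was not tested. No share over all coding sequences is given, so these copies are a description only.

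*KRT18*, a keratin of simple epithelium, was higher in siLTBP2 (36.4 ± 6.19 to 80.8 ± 7.66 CPM, SD, n = 3, edgeR adjusted p = 2.4e-04). Of the same list, *KRT8* went from 10.4 ± 1.06 to 13 ± 0.571 CPM and did not pass (edgeR adjusted p = 0.085). *KRT20* had no count, and *EPCAM* and *CDH1* had means of at most 0.0210 CPM. Among 5 markers of mural cells, *MCAM* rose from 11.5 ± 2.02 to 18.4 ± 4.85 CPM (SD, n = 3, adjusted p = 0.033), *RGS5* and *ACTA2* did not pass, and *MYH11* and *DES* were not tested. Of the 10 fibroblast markers, *PDGFRB* fell (log2 fold change -0.60, adjusted p = 0.0025) and 9 did not pass. The 5 immune markers summed to at most 0.486 CPM in any library.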
